A study of Mus musculus with 16 samples.

Results

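The cytosolic ribosome of the mouse thyroid is described here through the mRNAs of its proteins. Members were the protein-coding genes whose symbol carries the Rpl or Rps stem of a cytosolic ribosomal protein, ending in a number, a number with a, l or x, P0 to P2, or the a of Rpsa. That rule found 78 of the 21640 genes in the count table, 31 of the small (40S) subunit and 47 of the large (60S) subunit. All 78 passed the filter on low counts at both times, so no member was lost to it. The rule used names only and no measured value. Rps4l, Rpl32l and Rpl6l fit the pattern but are annotated as pseudogenes and were left out, and Rps3a1, Fau, Rack1, Rpl7l1, Rpl22l1 and Rpl36al are ribosomal or closely related genes whose symbols lie outside it. Those are given apart.

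Poly(A) RNA was sequenced from the thyroids of 16 wild-type (WT) C57Bl/6J mice, 1 library per mouse. The mice began their diets at 8 weeks of age, and no transgene, deletion or drug was involved. The control diet (CD) was a chow, and the high-fat diet plus sucrose water (HF+SD) was the overnutrition model. Thyroids were taken after 3 weeks (4 mice on each diet) or 6 weeks (4 mice on each diet, 1 CD library more than the study describes for that time), and the question is what the HF+SD does to the thyroid. The library names place the 3-week and the 6-week samples in separate library projects, so levels were not compared between the times. Values are CPM, the counts of a gene scaled to a common library size after TMM adjustment, and a log2 fold change is HF+SD minus CD.

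Library totals ran from 30025256 to 48508653 counts. The tissue is whole thyroid with its neighbours, and the 13 thyrocyte markers, thyroglobulin among them, took 27.3% to 30.2% of counts in 3-week CD mice and 28.5% to 30.8% in HF+SD mice, and 4.9% to 11.9% against 10.6% to 15% at 6 weeks, with 7 of 13 called higher in HF+SD mice at each time. Skeletal muscle transcripts were high in the 6-week CD mice M43, M45 and M48. The 20 muscle markers held 0.108%, 3.64%, 15.5% and 11.1% of counts in M22, M43, M45 and M48 of the CD group. They held 0.131% to 0.436% in the 6-week HF+SD mice, so M22 lay below all of those. All 20 were called lower in HF+SD mice, but the groups overlapped for each of the 20. At 3 weeks the same list held at most 0.0251% of any library, and its 4 HF+SD libraries (0.0216% to 0.0251%) lay above the 4 CD libraries (0.0125% to 0.0171%), where Ckm, Myh2, Tnnc2 and Pvalb had no count in 1 or 2 of the mice. In the HF+SD mice all 7 endothelial markers were called higher at both times, summing to 0.0876% to 0.129% of counts at 3 weeks against 0.0489% to 0.0582% in CD mice, and to 0.102% to 0.122% at 6 weeks against 0.0193% to 0.0393%. All 8 mitotic genes were also higher at both times, with 0.00532% to 0.0123% of counts in HF+SD mice and at most 0.00155% in CD mice (Bub1 had no count in 1 CD mouse of 3 weeks). Adipocyte markers were lower (6 of 7 called at each time), with 0.0107% to 0.0284% of counts in HF+SD mice and 0.0348% to 0.098% in CD mice, and of the 4 C cell markers 2 were called lower at 3 weeks and 3 at 6 weeks. The 3 parathyroid markers, none of them called, held 1.71% of counts in the 6-week CD mouse M22 and 0.156% to 0.451% in the other 3, against 0.0507% to 0.206% in HF+SD mice (median log2 fold change -2.07). The part of these shifts in cell makeup in the values below was not tested beyond the alternatives named, and in bulk tissue fewer cells of a type and less RNA per cell cannot be told apart.

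Each ribosome carries 1 copy of nearly every ribosomal protein, so cells make these proteins in matched amounts. The small subunit decodes the mRNA, and the large subunit forms the peptide bond and houses the tunnel through which the new chain leaves. Most of these mRNAs begin with a C followed by a run of pyrimidines, the 5′ terminal oligopyrimidine (TOP) tract, through which mTORC1 and the RNA-binding protein LARP1 control their translation and stability. A thyrocyte depends on this machinery for thyroglobulin, a very large secreted protein. A few subunits have a second gene with restricted use, such as Rpl3l, which is the striated muscle counterpart of Rpl3, and Rps27l, a p53-responsive counterpart of Rps27.

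The start of transcription is shown for members the results turn on, because the TOP tract is the feature these genes are known to share. Each line holds the 15 bases before and the 15 bases from the annotated RefSeq start (build GRCm38.p6, gene strand, 5′ to 3′), with the tract in capitals where a C within 3 bases of the start is followed by at least 4 pyrimidines. Rps6, Rps27, Rps27l, Rpl14, Rpl28 and Rpl38 hold such a tract, and Rpsa, Rps19 and Rpl3l do not at the annotated base.
Rps6 (chr4:86857353-86857382, minus strand): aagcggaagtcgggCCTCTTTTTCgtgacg
Rps27 (chr3:90213634-90213663, minus strand): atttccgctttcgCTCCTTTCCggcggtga
Rps27l (chr9:66946071-66946100, plus strand): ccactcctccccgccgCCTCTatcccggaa
Rpl14 (chr9:120571502-120571531, plus strand): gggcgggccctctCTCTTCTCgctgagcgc
Rpl28 (chr7:4792950-4792979, plus strand): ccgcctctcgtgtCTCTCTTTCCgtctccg
Rpl38 (chr11:114668565-114668594, plus strand): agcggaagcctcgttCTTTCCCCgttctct
Rpsa (chr9:120127751-120127780, plus strand): gtgggttatttaaggacgtcatttccggcc
Rps19 (chr7:24884577-24884606, plus strand): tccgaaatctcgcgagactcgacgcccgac
Rpl3l (chr17:24727811-24727840, plus strand): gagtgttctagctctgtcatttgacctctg

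RefSeq promoter windows (250 bases before to 50 after the start) could be matched to 58 of the 78 members. The tract as defined above stood in 39.7% of these 58 windows and in 11.6% of all 27025 mouse windows. CCGGAAG, the core recognized by GABPA and other ETS factors, was found on either strand in 39.7% of the members' windows against 9.12% of all windows. AAGATGG, the YY1 core, was in 13.8% against 6.48%, and GGGCGG, the SP1 box, in 58.6% against 35.9%. The TATA box TATAAA was less frequent among the members (8.62%) than among all windows (14.2%). The E-box CACGTG was in 5 windows of the large subunit (Rpl13a, Rpl14, Rpl19, Rpl23 and Rpl34) and in 0 of the 23 small subunit windows, at 7.24% of all windows. A match says only that the letters are there. Among the 56 general members with a window (Rpl3l and Rps27l set aside), those with the tract at the start had a median log2 fold change of -0.22 at 3 weeks and -0.42 at 6 weeks, and those without it had -0.25 and -0.40. With CCGGAAG the medians were -0.21 and -0.42, and without it -0.26 and -0.40. CCGGAAG thus did not sort the members by their diet difference. For the tract the medians cannot decide this. Most of these mRNAs are known to begin with it, yet the search found it in only 39.7% of the 58 windows. The members counted as without the tract may therefore include mRNAs whose tract lies away from the annotated start.

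After 3 weeks the ribosomal protein mRNAs were lower in HF+SD mice almost without exception, each by a small amount. The fitted log2 fold change was below 0 for 77 of 78 members, and their median of -0.23 (a decrease of 15%) compares with -0.01 over all 17238 genes tested. Of the 78, 37 were called lower (47.4%) at an adjusted p under 0.05 by edgeR's quasi-likelihood test, where 5.78% of all genes were, and 0 were called higher, against 9.07% of all genes. At an unadjusted p under 0.05 there were 55 lower and 1 higher. The 4 HF+SD mice lay below all 4 CD mice for 61 members (78.2%, against 10.5% of all genes) and above them for 1 (13.1% of all genes). General members stood close together, with an interquartile range of log2 fold changes from -0.28 to -0.17, while that of all genes spanned -0.21 to 0.24. Other genes of like length (860 to 3548 bases, the 10th to 90th percentile of members) had a median of 0.01. Length here is the union of all annotated exons of a gene (6270 bases for Rps15a), which can exceed its mRNA. This comparison therefore does not match genes on mRNA length.

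After 6 weeks the median lay further below 0, although the test of the difference between the times called 0 members by edgeR and 26 by DESeq2. With a trend on exon-union length and GC content subtracted, the small and large subunit medians were -0.32 and -0.28 at 3 weeks and -0.33 and -0.29 at 6 weeks. The medians of all genes in that setting were -0.06 and 0.05, so relative to them both subunits lay further down at 6 weeks. By sign 73 of 78 members were lower, with a median of -0.42 against -0.01 over all 18249 genes and -0.04 over other genes of like length. Here 39 members (50%) were called lower and 0 higher, where 9.55% and 12% of all genes were, and 56 lower and 0 higher had an unadjusted p under 0.05. The mice of the diets did not overlap for 60 members, all lower in HF+SD mice (76.9%, against 9.97% of all genes), and for 0 in the other direction (13.8% of all genes). Across both times 73 members were lower by sign, 50 had every HF+SD mouse below every CD mouse at both, and 21 were called at both. The interquartile range of the general members' log2 fold changes ran from -0.52 to -0.28. The scatter of members at both times shows that each time's changes lay within a narrow band and that the order of members was only loosely kept, with Pearson's r of 0.24 and Spearman's rho of 0.22 over the 76 general members, which share libraries within a time.

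**Figure D1:**
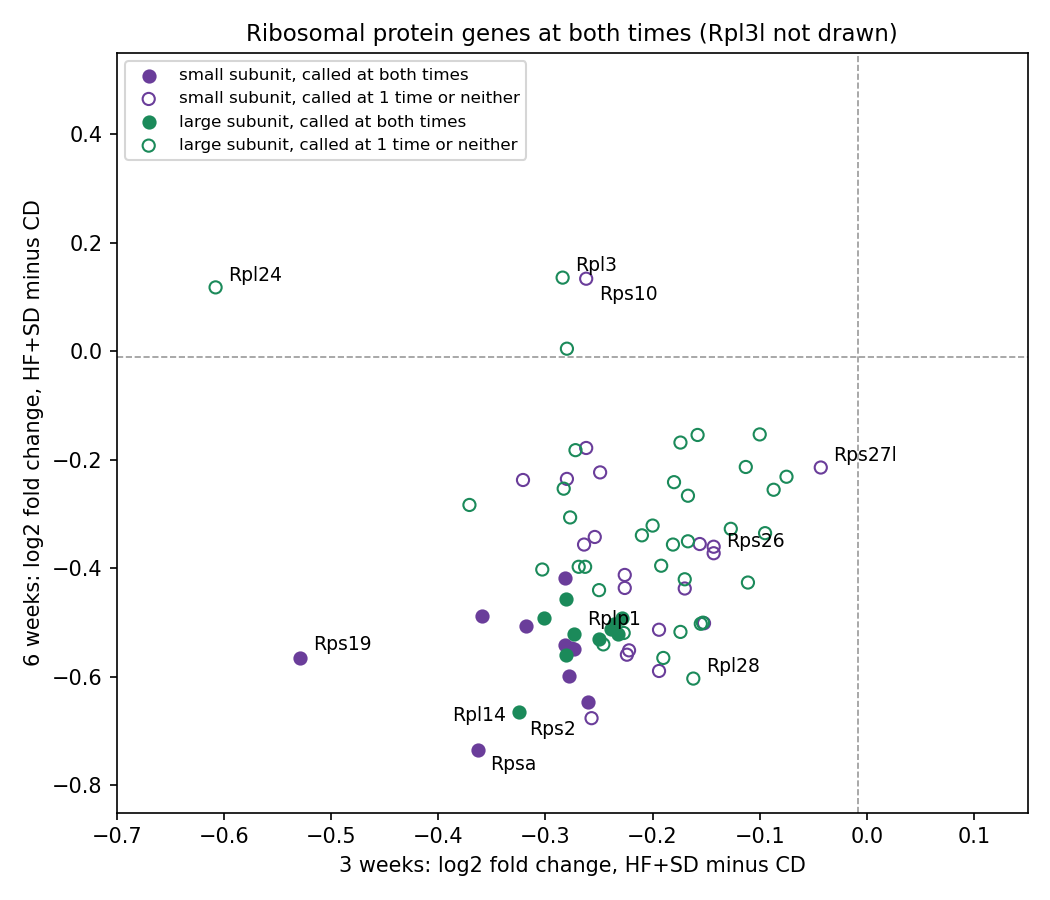
Log2 fold change (HF+SD minus CD) of the members at 3 weeks (x axis) and 6 weeks (y axis), in purple for the small and green for the large subunit, filled where called at both times; the dashed lines are the medians of all genes, and Rpl3l (-5.16 at 6 weeks) is outside the frame. Nearly all points lie in the lower left, and Rpl3, Rpl24, Rps10 and (barely) Rpl13a are above the 6-week line. Members not reported here are not drawn.

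The number of calls moved with the mice that entered, more than the sizes did. Leaving out a single mouse of 3 weeks gave 12 (without M53), 36 (M54), 41 (M55), 23 (M96), 16 (M7), 5 (M19y), 7 (M20y) or 4 (M31) members called lower. For 6 weeks the numbers were 44 (M22), 35 (M43), 38 (M45), 24 (M48), 26 (M5), 4 (M18), 4 (M34) and 13 (M35). All-gene calls moved too. At 3 weeks 461 (without M20y) to 1381 (M55) genes were called lower, against 996 with all mice. At 6 weeks 559 (without M18) to 2786 (M22) were, against 1743. The subunit medians stayed between -0.28 and -0.18 at 3 weeks and between -0.52 and -0.37 at 6 weeks. DESeq2 called 52 and 56 members lower, which included all 37 and all 39, and it called 1671 of 17238 and 2586 of 18249 genes lower. With a muscle score as covariate 2 members were called lower at 3 weeks, where 540 of all 17238 genes were. The muscle score itself separated the diets at that time. At 6 weeks 27 members were called lower with it, where 773 of all 18249 genes were. The medians with this covariate were -0.23 (small) and -0.18 (large) at 3 weeks, with 76 of 78 members below 0, and -0.49 and -0.36 at 6 weeks. Without the muscle-rich CD mice M45 and M48, 28 members were called lower at 6 weeks, where 710 of all 18878 genes were. The median was -0.49 for the small and -0.40 for the large subunit.

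The small subunit stood slightly further down than the large one at both times. At 3 weeks all 31 small subunit members were below 0 (median -0.26), and 18 were called lower (58.1%). The diets did not overlap for 27 (87.1%, against 10.5% of all genes). At 6 weeks 30 of 31 were below 0 (median -0.49), with 19 called (61.3%) and 26 not overlapping (83.9%, against 9.97% of all genes). The head of the 40S subunit swivels as tRNA moves, and of the 14 genes listed for its proteins 8 were called lower at 3 weeks (5.78% of all genes and 58.1% of the small subunit were) and 12 at 6 weeks (9.55% and 61.3%), with medians of -0.26 and -0.53.

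Rpsa, which encodes the laminin receptor protein that sits on the back of the 40S subunit, had the lowest 6-week log2 fold change of the general members. In CD mice it measured 774, 832.5, 898 and 835 CPM, and in HF+SD mice 542, 492, 475 and 499 CPM. The lowest CD mouse stood well above the highest HF+SD mouse. The log2 fold change was -0.73 (SE 0.14, edgeR adjusted p = 0.00766), a decrease of 39.9%, and the exact two-sided permutation p was 0.0286, the smallest that 4 against 4 mice can give. At 3 weeks Rpsa was already lower, with 413, 383, 447 and 374 CPM in CD mice and 329, 307, 327 and 295 CPM in HF+SD mice (log2 fold change -0.36, SE 0.08, edgeR adjusted p = 0.0172). It was called lower at 6 weeks also when any 1 mouse was left out.

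Rps19, the gene most often mutated in Diamond-Blackfan anaemia and needed for 40S maturation, had the lowest 3-week value among members called. Its 3-week levels were 219.8, 205, 231 and 237 CPM in CD mice and 156, 153, 161 and 148 CPM in HF+SD mice, a difference of -0.53 on the log2 scale (SE 0.07, edgeR adjusted p = 0.0016) with no overlap. At 6 weeks it measured 392, 444, 336 and 332 CPM in CD mice and from 235 to 271 CPM in HF+SD mice. The log2 fold change there was -0.57 (SE 0.15, edgeR adjusted p = 0.025), and the difference between the times was -0.09 (edgeR interaction, unadjusted p = 0.526, adjusted p = 0.748).

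Rps27a, whose product is made as a fusion with ubiquitin, measured 230.4, 205, 225 and 203 CPM in 3-week CD mice against 184, 164, 165 and 160 CPM in HF+SD mice. Its log2 fold change was -0.36 at 3 weeks (SE 0.08, edgeR adjusted p = 0.0145) and -0.49 at 6 weeks (SE 0.15, adjusted p = 0.0478). The 6-week call was lost with the muscle covariate (-0.57, adjusted p = 0.0522), with upper-quartile factors (-0.50, adjusted p = 0.05), without the low-count filter (-0.48, adjusted p = 0.0582) and without any 1 mouse other than M45. Rps25, needed by several viral and cellular internal ribosome entry sites, stood at 546, 618, 637 and 609 CPM in 6-week CD mice and at 388, 378, 373 and 401 CPM in HF+SD mice. The gap was -0.65 (SE 0.13, adjusted p = 0.0105), against -0.26 at 3 weeks (adjusted p = 0.0322).

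Rps2, a protein of the mRNA entry channel, had CD values that spread with the muscle counts of the mice. Its CD values at 6 weeks were 514, 604, 869 and 697 CPM for M22, M43, M45 and M48, and its HF+SD values 456, 435, 381 and 407 CPM. The higher CD values belong to the mice with more muscle counts. The log2 fold change was -0.68 (SE 0.19, edgeR adjusted p = 0.0321), which became -0.40 (adjusted p = 0.122) without M45 and M48 and -0.34 (adjusted p = 0.18) with the muscle score as covariate.

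Rps6, the substrate of the S6 kinases downstream of mTORC1, was lower at both times but passed the test only at 3 weeks. It measured 226, 212, 252 and 218 CPM in CD mice and 199, 184, 184 and 182 CPM in HF+SD mice at 3 weeks (log2 fold change -0.28, SE 0.08, edgeR adjusted p = 0.0376). At 6 weeks the values were 412, 524, 404 and 391 CPM against 389.6, 372, 366 and 344 CPM, which did not overlap although the highest HF+SD mouse was within 2 CPM of the lowest CD mouse (log2 fold change -0.23, SE 0.15, adjusted p = 0.284). Rps3, a head protein with a second role in DNA repair, and Rps4x, the X-linked copy of S4, were likewise called only at 3 weeks. They stood at -0.26 and -0.32 at 3 weeks (edgeR adjusted p = 0.0345 and 0.0174) and -0.18 and -0.24 at 6 weeks (adjusted p = 0.48 and 0.373, with overlap). The differences between the times were -0.006 for Rps6, 0.03 for Rps3 and 0.03 for Rps4x (edgeR interaction adjusted p = 0.985, 0.927 and 0.927). Rps26, which contacts the mRNA upstream of the start codon, passed at neither time, with -0.14 at 3 weeks (adjusted p = 0.203) and -0.37 at 6 weeks (adjusted p = 0.0645, no overlap). Rps15 and Rps29 encode head proteins and had the highest CPM per kb of exon union in the small subunit at 6 weeks (760.0 and 567). They measured -0.17 and -0.15 at 3 weeks (edgeR adjusted p = 0.104 and 0.212) and were called lower at 6 weeks, by -0.44 and -0.50 (adjusted p = 0.0382 and 0.0241). The 6-week calls of Rps15 (adjusted p = 0.064) and Rps29 (adjusted p = 0.0512) ended without M45 and M48, at log2 fold changes of -0.44 and -0.50.

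**Figure D2:**
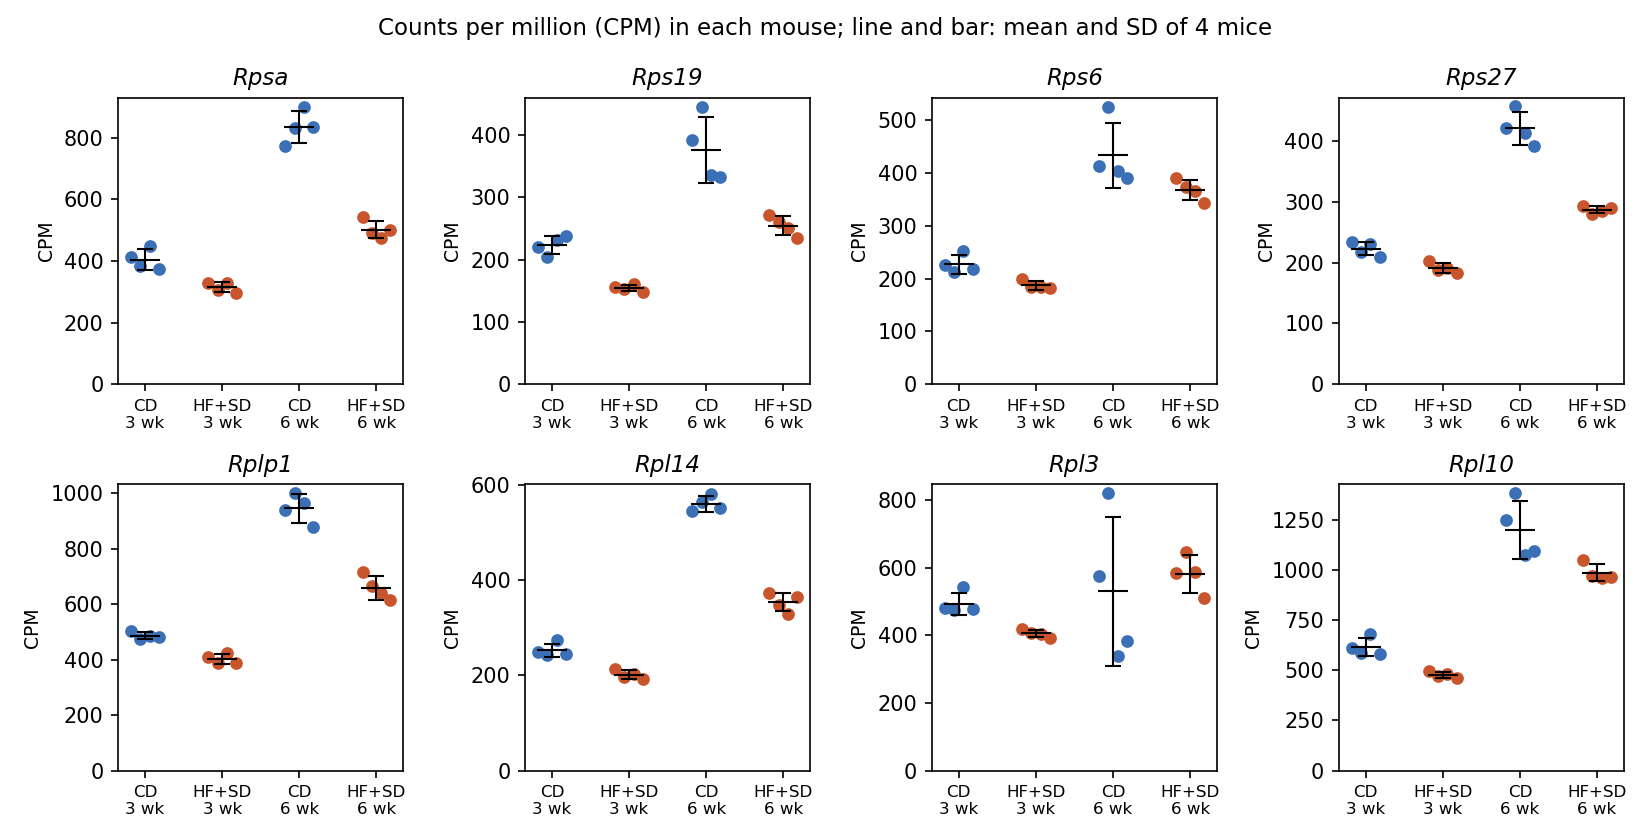
CPM of 8 members in each of the 16 mice, with CD in blue and HF+SD in orange, the line and bar giving the mean and SD of 4 mice and each axis starting at 0. Rpsa, Rps19, Rps27, Rplp1 and Rpl14 separate the diets at both times, as do Rpl10 and, only narrowly at 6 weeks, Rps6. Rpl3 spreads widely in the 6-week CD mice.

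In the large subunit 46 of 47 members were below 0 at 3 weeks (median -0.21) with 19 called lower (40.4%), and 43 of 47 at 6 weeks (median -0.40) with 20 called (42.6%). At each time 34 of the 47 (72.3%) had no overlap between diets with HF+SD mice lower, against 10.5% of all genes at 3 weeks and 9.97% at 6 weeks. The P-stalk, the flexible arm that recruits the elongation factors, is made of Rplp0, Rplp1 and Rplp2 on a base shared with Rpl12. Of these 4 genes 3 were called lower at 3 weeks (all but Rplp2), where 5.78% of all genes were. At 6 weeks 2 were (Rplp1 and Rpl12), where 9.55% of all genes were. Per kb of exon union, which is not the length of the mRNA, Rplp1 had the highest level of all members, at 891 CPM per kb at 3 weeks and 1609 at 6 weeks. It measured 503, 476, 486 and 481 CPM in 3-week CD mice and 408, 389, 425 and 389 CPM in HF+SD mice (log2 fold change -0.27, SE 0.07, edgeR adjusted p = 0.0252), and 939.6, 1002, 965 and 878 CPM against 718, 667, 639 and 616 CPM at 6 weeks (-0.52, SE 0.14, adjusted p = 0.0311). No mouse overlapped at either time.

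Rplp0 gave 629, 589, 737 and 583 CPM in CD mice against 538, 501, 514 and 504 CPM in HF+SD mice at 3 weeks, a log2 fold change of -0.30 (SE 0.09) just inside the threshold (edgeR adjusted p = 0.0497). At 6 weeks it stood at -0.40 (SE 0.17, adjusted p = 0.125), with the HF+SD mouse M5 at 858 CPM overlapping the CD mouse M22 at 829.7 CPM. Rplp2, the partner of Rplp1 in the stalk dimer, was at -0.18 and -0.36 (adjusted p = 0.132 and 0.0847). Rpl12 fell by 0.28 and by 0.46 on the log2 scale (adjusted p = 0.0389 and 0.0346), and at 6 weeks the call ended with the muscle covariate (adjusted p = 0.0505) and without M45 and M48 (adjusted p = 0.0522), while the log2 fold change stayed at -0.46 and -0.48.

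Rpl5 and Rpl11 carry the 5S rRNA into the large subunit and, when ribosome assembly fails, bind MDM2 and so stabilize p53. Rpl5 measured 354, 339.8, 389 and 341 CPM in 3-week CD mice and 304, 294, 293 and 278 CPM in HF+SD mice (log2 fold change -0.28, SE 0.07, edgeR adjusted p = 0.0299), and at 6 weeks -0.25 (SE 0.17, adjusted p = 0.318) with overlap. Rpl11 was not called at 3 weeks (-0.17, adjusted p = 0.182), and at 6 weeks it measured 596, 596, 534 and 547 CPM in CD mice against 451, 435, 428 and 468 CPM in HF+SD mice (log2 fold change -0.35, SE 0.13, adjusted p = 0.0871). Its 6-week groups did not overlap although the test was missed.

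The proteins that ring the exit of the peptide tunnel were listed apart. All 7 genes were below 0 at both times, with medians of -0.17 and -0.50. At 3 weeks 1 was called lower (5.78% of all genes and 40.4% of the large subunit were), and at 6 weeks 5 (9.55% and 42.6%). None of the 7 overlapped between diets at 6 weeks, with HF+SD mice lower, as for 9.97% of all genes and 72.3% of the large subunit. Rpl39, a short protein that lines this tunnel and has a germline copy (Rpl39l), measured 237.5, 249, 224 and 225 CPM in 6-week CD mice against 168, 161, 160.0 and 172 CPM in HF+SD mice. The log2 fold change was -0.50 (SE 0.12, edgeR adjusted p = 0.0169), and at 3 weeks -0.15 (SE 0.07, adjusted p = 0.168). Rpl41, whose product is the shortest ribosomal protein, gave -0.08 and -0.23 (adjusted p = 0.524 and 0.335) with overlap at both times, and at 6 weeks its CD mice ranged from 465 to 660.5 CPM.

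Among the lowest of the large subunit at 6 weeks were Rpl14, Rpl28 and Rpl38. Rpl14 measured 545, 564, 582 and 551 CPM in CD mice and 373, 349, 329.6 and 364 CPM in HF+SD mice. Its log2 fold change was -0.67 (SE 0.13, edgeR adjusted p = 0.00834), it was called lower also when any 1 mouse was left out, and at 3 weeks it was -0.32 (SE 0.07, adjusted p = 0.0159). Rpl28, which bacterial ribosomes lack, measured 545, 504, 612 and 554 CPM against 372, 362, 337 and 388 CPM at 6 weeks (log2 fold change -0.60, SE 0.14, adjusted p = 0.0161) but -0.16 at 3 weeks (adjusted p = 0.135). Rpl38, known for its part in the translation of Hox mRNAs during patterning of the skeleton, gave 220.4, 212, 198 and 190.4 CPM against 142, 141, 135 and 139 CPM (log2 fold change -0.56, SE 0.12, adjusted p = 0.0104), and -0.19 at 3 weeks (adjusted p = 0.11). Rpl10, which completes the peptidyl transferase centre late in maturation, was called at 3 weeks and missed the test at 6 weeks. Its difference between the times was 0.04 (SE 0.14, edgeR interaction adjusted p = 0.908). It was the large subunit member with the lowest called value at 3 weeks (612, 587, 682 and 584 CPM against 495, 469.5, 482 and 459 CPM, log2 fold change -0.37, SE 0.08, adjusted p = 0.0121) and at 6 weeks it was at -0.28 (SE 0.16, adjusted p = 0.225), with no overlap.

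The balance of the subunits was taken in each mouse as the mean log2 CPM of 45 general large subunit members minus that of 29 general small subunit members, those reported here. At 6 weeks it was -0.24, -0.24, -0.23 and -0.23 in CD mice (M22, M43, M45 and M48) and -0.17, -0.16, -0.16 and -0.14 in HF+SD mice. The diets did not overlap. Muscle counts of the CD mice ran from 0.108% to 15.5%. To 4 digits the balance was -0.2426 and -0.2441 in M22 and M43, and -0.225 and -0.2259 in the muscle-rich M45 and M48. The part of muscle in the balance was not tested. At 3 weeks it was -0.22, -0.19, -0.1766 and -0.20 in CD mice and -0.17, -0.15, -0.1767 and -0.14 in HF+SD mice, so that the CD mouse M55 and the HF+SD mouse M20y met and the groups overlapped. In raw counts the large subunit members had 1.47 to 1.48 counts for each small subunit count in 6-week CD mice and 1.56 to 1.58 in HF+SD mice. At 3 weeks the ratio was 1.49 to 1.5387 in CD mice and 1.5388 to 1.56 in HF+SD mice, so the nearest mice, M55 on CD and M7 on HF+SD, all but met. These are descriptions of a score over the members and carry no p. All members together took 1.88% to 2.08% of counts in 3-week CD mice and 1.56% to 1.73% in HF+SD mice. At 6 weeks they took 4.36%, 4.3%, 2.78% and 3.22% in the CD mice, in the order above, and 3.05% to 3.2% in HF+SD mice, so the raw share overlapped, and its lowest CD values were those of the muscle-rich M45 and M48. The part of muscle in this share was not tested.

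**Figure D3:**
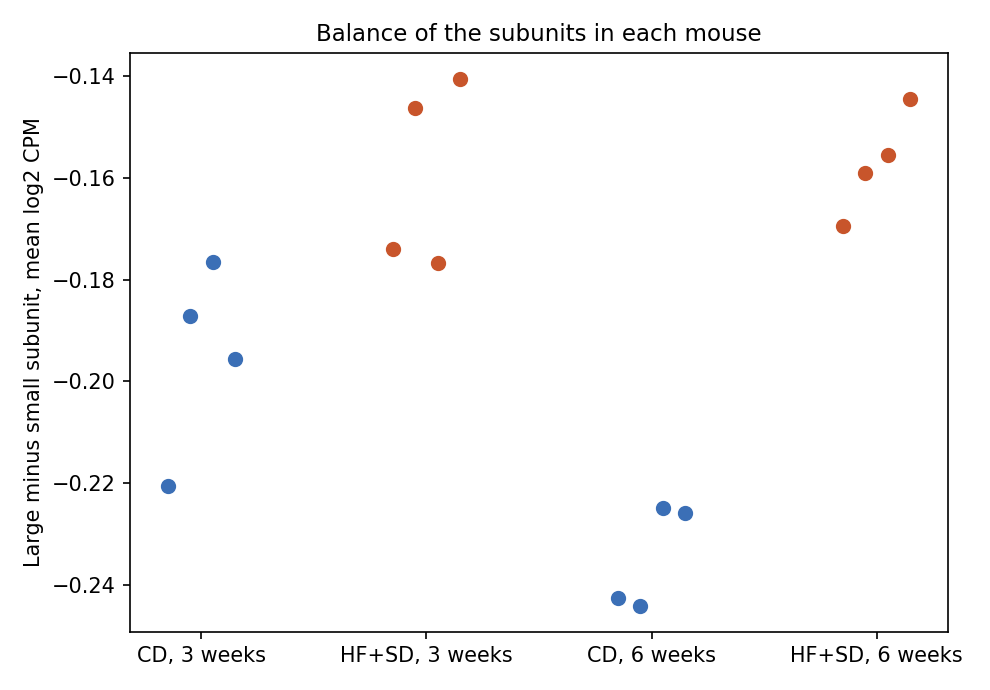
Mean log2 CPM of 45 general large subunit members minus that of 29 small subunit members (y axis), 1 point per mouse, with CD in blue and HF+SD in orange. All 4 HF+SD mice lie above the CD mice at 6 weeks, and the groups touch at 3 weeks.

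Of the paralogs listed as restricted or regulated, Rpl3l and Rps27l are members, and each is set beside its general copy. Rpl3l was the only member past a log2 fold change of 1 that was called. At 6 weeks it measured 2.5, 93.6, 508 and 288 CPM in CD mice (M22, M43, M45, then M48), and 13.6, 3.57, 2.82 and 4.86 CPM in the HF+SD mice M5, M18, M34 and M35. The CD mouse with the least muscle was below all HF+SD mice, and the order of Rpl3l among CD mice was that of their muscle counts. The fitted log2 fold change was -5.16 (SE 1.27, edgeR adjusted p = 0.0209), with overlapping groups. It fell to -0.14 (adjusted p = 0.746) with the muscle score as covariate and to -2.94 (adjusted p = 0.13) without M45 and M48. At 3 weeks Rpl3l was at 0.169 to 0.941 CPM in CD mice and 0.333 to 0.803 CPM in HF+SD mice (log2 fold change -0.08, SE 0.46, adjusted p = 0.922), in libraries with almost no muscle counts. Rps4l, a copy of Rps4x that is annotated as a pseudogene and is no member, measured 8.15 to 11.5 CPM in 6-week CD mice and 12.2 to 14.9 CPM in HF+SD mice (log2 fold change 0.34, edgeR adjusted p = 0.154), and overlapped at 3 weeks (0.00, adjusted p = 0.989).

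Rpl3, the general copy that Rpl3l replaces in muscle fibres, did not follow Rpl3l in a single direction among the 6-week CD mice. It measured 576, 822, 339.5 and 383 CPM in M22, M43, M45 and M48, and 584, 647, 587 and 511 CPM in the HF+SD mice. The muscle-rich M45 and M48 were the lowest of all 8 mice, and M43, with 3.64% muscle counts, was the highest. The log2 fold change at 6 weeks was 0.14 (SE 0.27, edgeR adjusted p = 0.756), and it turned to -0.25 (adjusted p = 0.44) without M45 and M48 and to -0.15 (adjusted p = 0.812) with the muscle covariate. At 3 weeks Rpl3 followed the other general members, with 479.5, 476, 543 and 479 CPM in CD mice against 419, 407, 404 and 393 CPM in HF+SD mice (log2 fold change -0.28, SE 0.07, adjusted p = 0.0291). The coding sequences of Rpl3 and Rpl3l are 73.3% identical and share no identical run over 22 bases, which is short against 150 base reads.

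**Figure D4:**
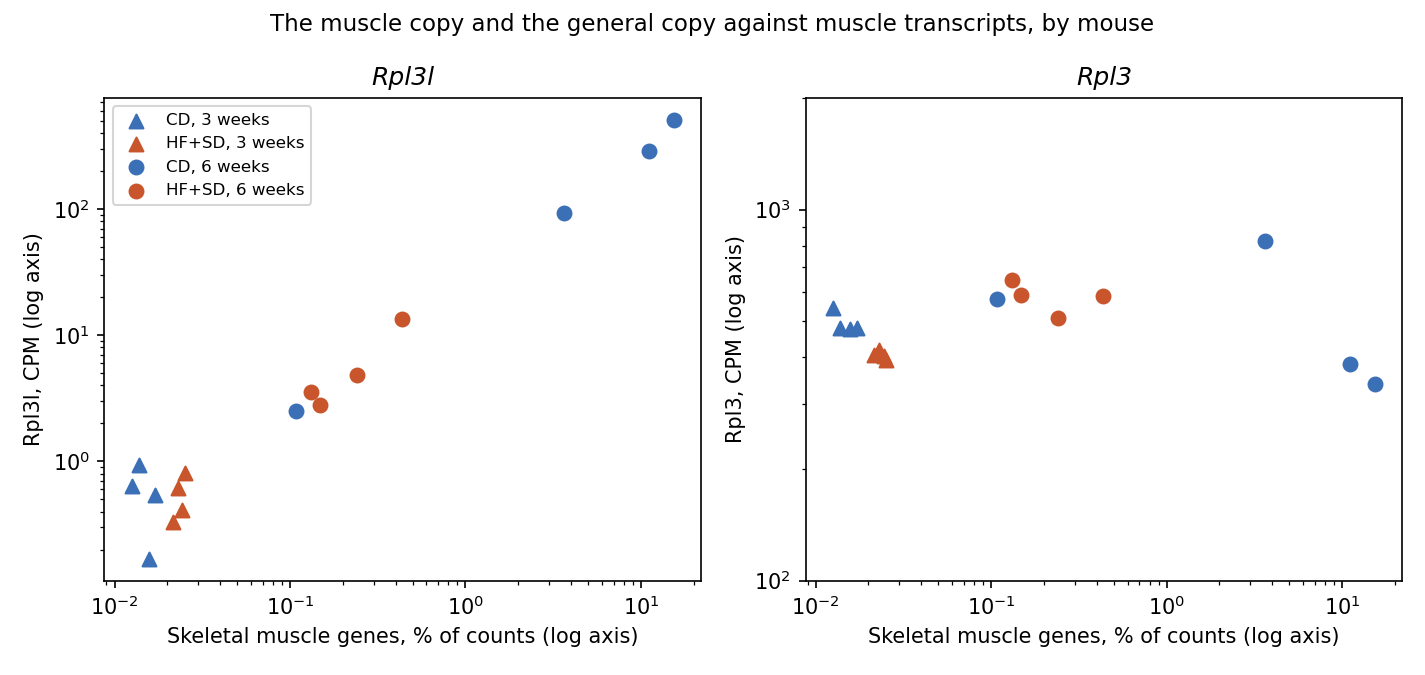
Rpl3l (left) and Rpl3 (right) in CPM against the summed share of the 20 skeletal muscle markers (percent of counts), both axes on a log scale, 1 point per mouse, with triangles for 3 weeks, circles for 6 weeks, CD in blue and HF+SD in orange. Rpl3l rises with the muscle share across the 6-week mice from 2.5 to 508 CPM, and the 2 CD mice with the most muscle have the lowest Rpl3 of their time.

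Rps27l stayed nearest to 0 among the small subunit members at 3 weeks. It measured 49.9, 47.7, 53.5 and 44.7 CPM in CD mice and 50.7, 46.2, 48.7 and 44.5 CPM in HF+SD mice, a log2 fold change of -0.04 (SE 0.08, edgeR adjusted p = 0.748). At 6 weeks the values were 88.5, 102, 111 and 103 CPM against 90.3, 81.7, 86.0 and 90.8 CPM (log2 fold change -0.21, SE 0.12, adjusted p = 0.219), again overlapping. Rps27, its general copy, was lower without overlap at both times. It gave 234, 217, 231 and 209.9 CPM against 202, 188, 192 and 182 CPM at 3 weeks (-0.22, SE 0.07, adjusted p = 0.0608), and 422, 457, 413 and 392 CPM against 294, 280.2, 285 and 290.2 CPM at 6 weeks (-0.55, SE 0.12, adjusted p = 0.0161). The coding sequences of the pair are 76.1% identical with no identical run over 11 bases. Rps27rt, a retrotransposed copy outside the rule, is identical to Rps27 over all 255 coding bases, so reads of that stretch cannot be placed between them, and it held 3.27 to 5.68 CPM at 3 weeks and 18.1 to 31 CPM at 6 weeks. Of the 12 p53 target genes listed, 1 was called lower at each time and 0 higher, a share near that of all genes (5.78% and 9.55% lower). That gene was Phlda3, an inhibitor of AKT at the membrane (log2 fold change -0.59, adjusted p = 0.00635, and -1.45, adjusted p = 0.0105), and Mdm2, the ligase that removes p53, was not called (-0.23, adjusted p = 0.0656, and -0.21, adjusted p = 0.352).

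Rpl24, Rps10 and Rpl13a (the last singled out after its values were seen) had too few counts for their level to be read as that of the protein's gene. Rpl24 collected 316 counts over all 16 libraries, Rps10 1846 and Rpl13a 3522. At 3 weeks Rpl24 measured 0.155 to 0.757 CPM and Rps10 1.75 to 4.11 CPM, and Rpl13a 4.24 to 7.3 CPM. All 3 overlapped between diets at both times, and the log2 fold changes of Rpl24, -0.61 at 3 weeks (SE 0.41, adjusted p = 0.352) and 0.12 at 6 weeks (SE 0.42, adjusted p = 0.867), and of Rps10, -0.26 (SE 0.28, adjusted p = 0.566) and 0.13 (SE 0.29, adjusted p = 0.78), are within their errors. Many ribosomal protein genes have processed pseudogenes to which reads can also align, and how the authors counted such reads is not given in the sources used here. Adding the counts of 73 pseudogene entries to their members left 39 called members at 6 weeks and moved no subunit median by more than 0.01.

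Whether the decrease differs between the times was asked by the diet by time interaction over all 16 libraries. For 62 of the 76 general members the 6-week value was further below 0, and the median difference (6 weeks minus 3 weeks) was -0.25 for members, -0.27 for the small and -0.24 for the large subunit, against -0.05 over all 18929 genes tested. None of the 78 members was called by edgeR (0.0792% of all genes were), although 37 had an unadjusted p under 0.05, as did 4217 of all 18929 genes. DESeq2 called 26 members, all further down at 6 weeks, where it called 10.1% of all genes, so the call depends on the tool. With edgeR 11 were called without the CD mouse M22 and 5 without M43. Of the 6-week CD mice M22 had the most parathyroid counts (1.71%) and the fewest muscle counts (0.108%, against 3.64%, 15.5% and 11.1%). Without M22 the 6-week diet test called 2786 genes lower and 2957 higher, against 1743 and 2184 with it. Why its removal changed the calls was not tested. The lowest interaction p of the members belonged to Rpl38 (-0.43, unadjusted p = 0.00186, edgeR adjusted p = 0.0642), Rpl39 (-0.40, 0.00271 and 0.0696) and Rpl28 (-0.50, 0.00291 and 0.0704).

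Ribosomal genes that the naming rule leaves out followed in part. Rps3a1, the mouse gene for S3a, was called lower at 3 weeks (-0.30, SE 0.07, edgeR adjusted p = 0.023) and measured -0.26 at 6 weeks (adjusted p = 0.307). Fau, which encodes S30 fused to a ubiquitin-like protein, gave 179, 165, 285 and 252 CPM against 152, 144, 147 and 149.7 CPM at 3 weeks (log2 fold change -0.57, SE 0.16, adjusted p = 0.0402) and -0.15 at 6 weeks (adjusted p = 0.619). Rpl22l1, the paralog of Rpl22, was called lower at both times, with 61.9, 55.7, 69.0 and 59.6 CPM against 50.4, 51.0, 49.1 and 42.0 CPM at 3 weeks (-0.35, SE 0.09, adjusted p = 0.0296) and 103, 109, 108 and 94.0 CPM against 71.2, 70.2, 65.5 and 67.9 CPM at 6 weeks (-0.59, SE 0.11, adjusted p = 0.00647). Rack1, the scaffold on the 40S head, was at -0.23 and -0.32 (adjusted p = 0.0884 and 0.148) without overlap at either time. Rpl7l1, a pre-60S assembly paralog of Rpl7, was at -0.05 and 0.16 (adjusted p = 0.755 and 0.503). Rpl36al, a paralog of Rpl36a, had at most 2.53 CPM and was not called.

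Other mRNAs with a TOP tract, which encode translation factors, the nascent polypeptide complex and a few RNA-binding or nucleolar proteins such as Npm1, were also mostly below 0. All 16 were at 3 weeks (median -0.23) and 14 of 16 at 6 weeks (median -0.24). Of these 5 were called lower at 3 weeks, where 5.78% of all genes were, and 4 at 6 weeks, where 9.55% were, with 0 called higher (9.07% and 12% of all genes). Btf3, a subunit of the nascent polypeptide complex at the tunnel exit, was called at both times (-0.44, edgeR adjusted p = 0.00607, and -0.56, adjusted p = 0.0166), as was Eif3e of the initiation factor eIF3 (-0.38, adjusted p = 0.0149, and -0.51, adjusted p = 0.0371). Eif4b, a helper of the eIF4A helicase, was called at 3 weeks alone (-0.38, adjusted p = 0.0067, then -0.17, adjusted p = 0.525). Eef1d, an exchange factor of elongation, reached -0.68 at 6 weeks (adjusted p = 0.0083).

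The 47 factors of rRNA processing and subunit assembly had medians of -0.21 and -0.27, of which 1 was called lower at 3 weeks (5.78% of all genes were) and 5 at 6 weeks (9.55% of all genes), so the calls in this list were no more frequent than that at 3 weeks and about as frequent at 6 weeks. Heatr1 of the small subunit processome was the one at 3 weeks (-0.46, edgeR adjusted p = 0.041), and at 6 weeks Dkc1, the pseudouridine synthase, measured -0.67 (adjusted p = 0.023) and Bccip, a chaperone of Rpl23, -0.71 (adjusted p = 0.0359). Of 11 genes of RNA polymerase I and its factors, Taf1a was called lower at 3 weeks (-0.44, adjusted p = 0.0206), and at 6 weeks 0 passed edgeR's test while Polr1b (unadjusted p = 0.0218) and Polr1a (unadjusted p = 0.0326) were the genes under 0.05. Among 11 genes of mTORC1, LARP1 and their targets, Eif4ebp1, the repressor of cap-dependent initiation, was lower at both times, with means of 26.3 against 14.5 CPM at 3 weeks (-0.86, SE 0.13, adjusted p = 0.00248) and 38.84 against 17.98 CPM at 6 weeks (-1.11, SE 0.18, adjusted p = 0.00411). Mtor itself was called higher at 3 weeks (0.42, edgeR adjusted p = 0.0117, and 0.33 at 6 weeks, adjusted p = 0.118). Rps6kb1, the S6 kinase, was called lower at 3 weeks (-0.41, adjusted p = 0.022, and -0.36 at 6 weeks, adjusted p = 0.0668). Over the 11 genes 2 were called lower and 1 higher at 3 weeks, where 5.78% and 9.07% of all genes were (median -0.11). At 6 weeks 1 was called lower and 1, a gene other than Mtor, higher, where 9.55% and 12% were (median -0.195).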

How the data were processed

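The authors deposited raw read counts per gene for the 16 libraries, whole numbers with no normalization, and these counts were the input of every test. The submitters' processing notes name Trim Galore 0.6.7, STAR, DESeq2 1.36.0, R 4.1.0 and the build mm39, and how multi-mapping reads were counted is not given in the sources used here. A second deposited table of normalized values was not used here. Gene names, biotypes and lengths came from GENCODE M21 (20843 of 21640 identifiers matched). Promoter windows came from RefSeq (GRCm38.p6), the first window of a gene where several are listed. All lengths, also those in CPM per kb, are of the union of a gene's exons, which can exceed its mRNA. They are from another build than the counts.

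Diets were compared within each time with edgeR 4.0.16 in R 4.3.3 (TMM factors, filterByExpr by diet, glmQLFit and glmQLFTest), with Benjamini-Hochberg adjustment over all genes tested, and the standard error is the absolute log2 fold change divided by the square root of F. Single genes were also tested by exact two-sided permutation of mice (log2 CPM, prior count 2). The interaction used all 16 libraries. DESeq2 1.42.0, other scalings and filters, a muscle score, a length and GC trend, pseudogene counts and leaving out each mouse were alternatives, and the scripts were checked on simulated counts. The subunit balance covers the general members reported here, a choice made after seeing the data. The members and gene lists were chosen with earlier results of these data known. Genes were named by rule: the paralogs and their general copies, the 4 lowest and 2 highest members per subunit and time, members past a log2 fold change of 1, the 3 with the lowest interaction p, the 2 with the highest CPM per kb per subunit, the P-stalk, 5S carriers and Rps6, listed genes outside the rule and at most 3 of each pathway list per time by p. Rpl13a, Rps3a1 and Rps27rt were named after their values were seen, and some genes that the rule picks are not reported here. Each library is 1 mouse named by the labels, and mice of a group differed by more than counting error, so p-values measure the spread between mice. Depth of 30025256 to 48508653 counts leaves counting error small for members over 50 CPM.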

Additional observations from a re-analysis of the deposited data

Results flagged for a closer look

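Of 132 groups of 4 mice, covering the named members and the subunit scores, 7 held a mouse far from the other 3 by Dixon's test (gap to the nearest mouse over the group's range), and chance flags about 1 in 20 groups. Among 6-week CD mice, Rps6 measured 524 CPM in M43 against 391 to 412 in the others, and Rps10 2.57 CPM in M45 against 3.27 to 3.35. Among 6-week HF+SD mice, Rpl10 measured 1051 CPM in M5 against 960 to 974, and Rps4x 599.7 CPM in M35 against 709 to 717. Among 3-week CD mice, Rpl3 measured 543 CPM in M55 against 475 to 480, and Rpl41 275 CPM in M96 against 297 to 298. Among 3-week HF+SD mice, Rps6 measured 199 CPM in M7 against 181 to 184. No member moved in opposite directions at the 2 times with no overlap at either, and by edgeR's interaction test 0 members were called (37 at an unadjusted p under 0.05, and 26 by DESeq2).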

How the results depend on the processing

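Under every alternative run both subunit medians stayed below 0 at both times. At 3 weeks the number of members called lower (37) was 76 when scaled to 9 thyrocyte genes and 7 in 1 fit of all 16 libraries. It was 2 with the muscle score as covariate, 0 past a log2 fold change of 1, and 4 to 41 without 1 mouse. Of all genes, thyrocyte scaling called 11289 of 17238 lower, the 1 fit 450 of 18929 and the muscle score 540 of 17238. Past a log2 fold change of 1 there were 242 of 17238, and 461 to 1381 genes were called lower without 1 mouse. The number called higher (0) was 1 by DESeq2, with upper-quartile factors and with the muscle score, and 0 to 1 without 1 mouse. At 6 weeks the number lower (39) was 77 with thyrocyte scaling, 66 in 1 fit of all 16 libraries, 1 past the fold minimum, and 4 to 44 without 1 mouse. Of all genes, thyrocyte scaling called 14294 of 18249 lower and the 1 fit 3437 of 18929. Past the fold minimum there were 1097 of 18249, and 559 to 2786 genes were called lower without 1 mouse. Thyrocyte scaling gave medians of -0.90 and -0.85 (small and large) at 3 weeks and -1.59 and -1.52 at 6 weeks. The median of all genes moved to -0.64 and -1.11, so that relative to it the members' subunit medians were -0.26 and -0.20, and -0.47 and -0.40. Rescaling moves all genes by a like amount, so these relative medians are no separate check. Of the 9 scaling genes 3 were called higher in HF+SD mice at 3 weeks and 4 at 6 weeks (9.07% and 12% of all genes were), with medians of 0.28 and 0.70. With the length and GC trend subtracted the medians were -0.32 and -0.28 at 3 weeks and -0.33 and -0.29 at 6 weeks. All-gene medians there were -0.06 and 0.05, so relative to them both subunits lay further down at 6 weeks. The number of members with a diet by time difference (0) was 26 by DESeq2, 3 with thyrocyte scaling and 0 to 11 without 1 mouse. The cause was not tested for these, except that fewer mice enter when 1 is left out.

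Directions of named genes turned with thyrocyte scaling at 6 weeks for Rpl3 (-0.94), Rpl24 (-1) and Rps10 (-0.96), which the shift of all genes (-1.11) sets, since all 3 stayed above that median. Rpl3 also turned at 6 weeks with the muscle score (-0.15) and without M45 and M48 (-0.25), and Rps27l turned with the muscle score at 3 weeks (0.026) and with the length and GC trend at 6 weeks (0.05). Leaving out 1 mouse gave both signs for Rpl3l (-0.377 to 0.253) and Rps27l (-0.084 to 0.002) at 3 weeks, and for Rpl3 (-0.038 to 0.401), Rpl24 (-0.041 to 0.429) and Rps10 (-0.036 to 0.361) at 6 weeks. Among members called at 3 weeks 3 of 37 were called without any 1 mouse, and at 6 weeks 4 of 39. No paired analysis was possible because the labels give mice of the 2 diets no shared replicate numbers.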
